A study of Mus musculus with 54 samples.

Results

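The arrays described here are the late prieurianin arrays of a 3T3-L1 time course, at 96, 144, 240 and 288 h, set against the prieurianin arrays at 24, 36 and 48 h. They were chosen by treatment and time in the sample titles and number 7 of the 54 arrays in the series, 4 late and 3 at 24 to 48 h. Prieurianin, a plant limonoid, was given at 2 µM. The series also held an arm with 0.5% DMSO and an untreated arm undergoing normal differentiation, and the 7 DMSO and 7 untreated arrays at the same times were used as reference courses. 3T3-L1 is an established mouse preadipocyte line, a single clone of fibroblast-like cells that turn into fat cells in culture. RNA from each arm and time was labelled with Cy5 and hybridised to 1 single-colour mouse oligonucleotide array, so no arm and time was measured more than once. The labels do not say whether each time was a separate culture, nor when the prieurianin and DMSO arms received a differentiation stimulus. Times within a window therefore stand in for replicates. The p-values rest on the spread between times, pooled over the 3 arms unless stated, and neighbouring times are not independent. Where time is a block, what the arms share at each time is taken out first, and the p-value rests on the spread that remains.

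Fat cell differentiation runs in stages. Early inducers switch on PPARγ (Pparg) and C/EBPα (Cebpa), a pair of transcription factors that keep each other expressed and turn on the terminal genes: those for fatty acid uptake, triglyceride assembly, the lipid droplet coat and secreted adipokines such as adiponectin. Preadipocytes stop dividing, lose preadipocyte genes such as Dlk1, and take apart much of their contractile actin network as they round up around lipid. The rest of the account asks how much of this terminal stage the treated cells reached after 48 h, and whether it receded between 96 to 144 h and 240 to 288 h.

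All levels are given as log2(intensity + 16) after quantile normalisation between arrays, so a difference of 1 is a doubling for bright genes and less than the true change for dim ones. A gene is called changed where limma's Benjamini-Hochberg adjusted p over 12792 genes was under 0.05, and ± gives the standard error of the fit. Median intensity ran from 95 to 141 over the 7 prieurianin arrays, and 100 to 132 probes per array lay at the top of the scanner's range. Across genes, pairs of the 24 to 48 h arrays correlated at 0.980 to 0.989, the 96 and 144 h arrays at 0.986, the 240 and 288 h arrays at 0.979, and arrays from different late windows at 0.955 to 0.975. The prieurianin array at 192 h was left out by the choice of times. It stood apart from its neighbours: Cfd was at 16, the top of the scale, there and in untreated cells at 192 h, and at 15.73 in DMSO, while the other late prieurianin arrays lay between 9.05 and 13.60. G0s2 was likewise at 11.95 on that array, at the level of the controls (11.42 and 11.46), whereas Actg2 stayed at 12.31 against 7.01 and 6.52. Adding the 192 h arrays cut the calls between the late windows in prieurianin from 763 to 9. The late differences went from 10 calls to 1 against DMSO and from 6 to 0 against untreated cells. Losses of named genes are given with the comparisons they touch, but not for every fall of a fat cell gene between the late windows.

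The first comparison asked which genes the treated cells changed after 48 h. Of 12792 genes, 217 were higher (1.7%) and 214 lower (1.67%) in the 4 late prieurianin arrays than in the 3 at 24 to 48 h, 431 in all (3.37%). With the same number of arrays, DMSO gave 2467 calls (19.3%; 9.97% higher, 9.32% lower) and untreated cells 1540 (12%; 5.57% higher, 6.46% lower). Late prieurianin arrays lay all above the earlier ones for 8.2% of genes and all below for 10.5%. Among called genes whose late and earlier arrays did not overlap, the largest rises were Cfd, Adipoq, Cd36 and Gpd1, all genes of the fat cell. Ccn2 and Ces1f, whose arrays overlapped, rose by 4.10 and 2.85. The number of calls rested on single times: 12 genes were called without the 24 h arrays, 8 without 36 h, 490 without 48 h, 842 without 96 h, 111 without 144 h, 124 without 240 h and 54 without 288 h. With the spread taken from the 7 prieurianin arrays alone, 21 genes were called. With 192 h added 376 genes were called, and the calls of Hmox1 (adjusted p = 0.063), Slc6a12 (0.11), Krt15 (0.071), Elovl6 (0.095), Cd68 (0.065) and Ccn2 (0.12) were lost. Fabp4 (0.048), Cidec (0.041) and Pparg (0.038), not called without that array, were called with it. In these bulk cultures, fewer fat cells and less of a transcript per fat cell cannot be told apart.

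Secreted products of the fat cell moved furthest. Cfd, the adipocyte serine protease adipsin, was at 5.09, 4.80 and 7.53 at 24, 36 and 48 h and at 12.82, 13.60, 9.68 and 9.05 at 96, 144, 240 and 288 h. Every late array lay above the earlier ones, and the 2 latest were well below the 2 before them. The rise was 5.48 ± 1.07 (44.7-fold, adjusted p = 0.013 with limma), against 8.79 ± 1.07 in DMSO and 8.42 ± 1.07 in untreated cells. Adipoq, which encodes adiponectin, was at 5.68, 5.86 and 9.36, then at 13.14, 13.35, 10.63 and 10.94. Its late arrays also lay above all earlier ones, and the rise was 5.05 ± 1.11 (adjusted p = 0.023). Both genes reached the top of the scanner's range on the 240 and 288 h control arrays, so their control rises are lower bounds. Rarres2, the adipokine chemerin, rose by 1.88 ± 0.44 (adjusted p = 0.031) and was saturated at 240 and 288 h in all 3 arms. In all, 3 of 7 adipokines rose and none fell, beside 5 of 7 rises in each control arm. The prieurianin list median of 1.88, beside -0.004 over all genes, is the value of Rarres2, and with saturated late arrays in every arm the list medians of the arms cannot be set against each other. The Cfd call was lost without the 24 h arrays (adjusted p = 0.11), without 36 h (0.11) and without 144 h (0.059). The Adipoq call was lost without 24 h (0.12), 36 h (0.14), 144 h (0.084) and 288 h (0.064).

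**Figure D1:**
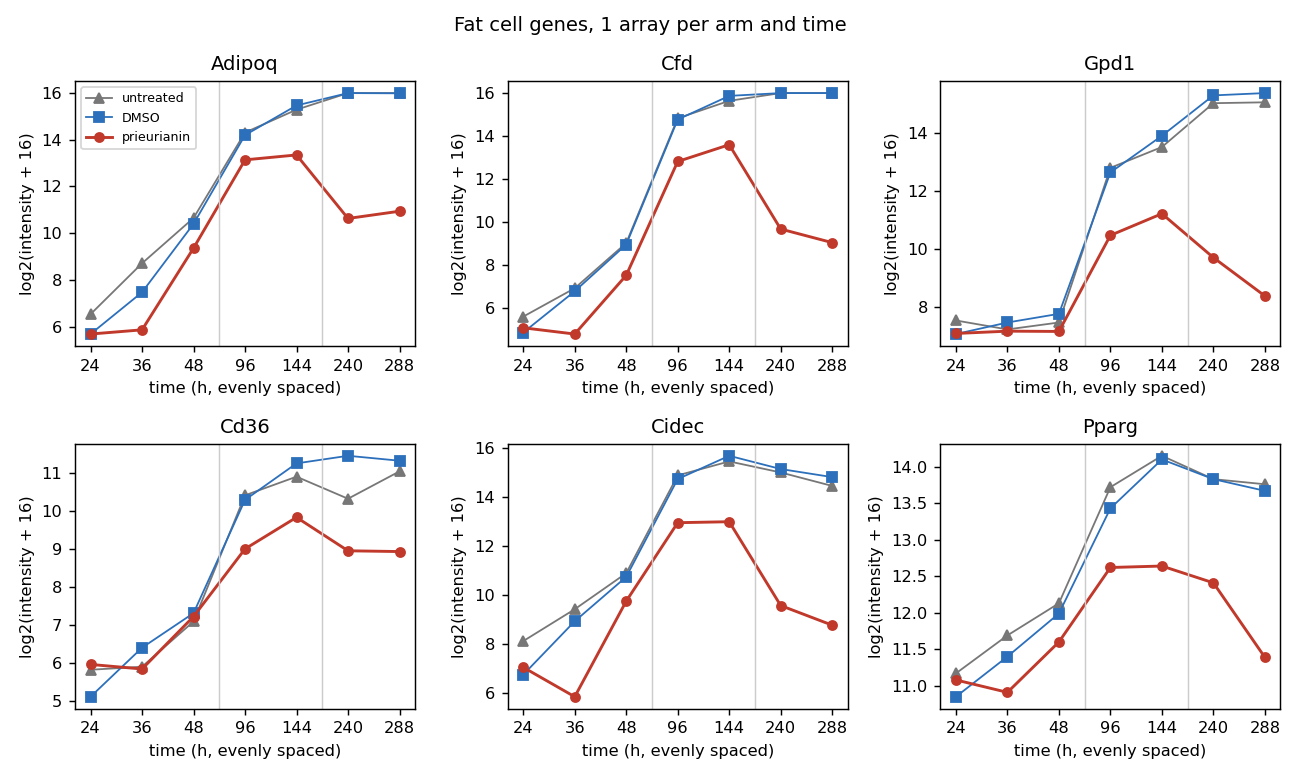
Levels of 6 fat cell genes, as log2(intensity + 16), at 24 to 288 h in untreated (grey), DMSO (blue) and prieurianin (red) cells, 1 array per point, with grey lines between the windows compared. At 96 and 144 h the prieurianin points lay above their 24 to 48 h points and below the controls. At 240 and 288 h Cfd had come down to 9.68 and 9.05 and Cidec to 9.58 and 8.78, whereas Cd36 held at 8.94 and 8.92.

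Genes for taking up fatty acids rose in part. Cd36, a fatty acid receptor at the cell surface, was at 5.95, 5.83 and 7.21 and then at 8.99, 9.82, 8.94 and 8.92. The late arrays did not overlap the earlier ones, with 144 h above the other 3, and the rise was 2.84 ± 0.46 (adjusted p = 0.0067), lost without the 36 h array (0.068). Lpl, the lipoprotein lipase that frees fatty acids from circulating particles, was at 14.03, 13.87 and 14.66 and then between 15.34 and 15.83, a rise of 1.41 ± 0.25 (adjusted p = 0.0086, and 0.078 without 36 h). All 4 late DMSO arrays were saturated for Lpl. Acsl1, which couples fatty acids to CoA, rose by 1.86 ± 0.49 (adjusted p = 0.044), a call that held only without 288 h (0.046). Thus 3 of 9 genes of the list rose and none fell, beside 6 of 9 in each control arm, and the list medians were 0.99 in prieurianin, 1.55 in DMSO and 1.29 in untreated cells. Fabp4, the carrier of fatty acids in fat cells, was at 10.02, 10.47 and 12.45 and then at 13.14, 13.38, 12.02 and 11.99. Its late arrays overlapped the 48 h array, and the difference of 1.65 ± 0.55 missed the threshold (adjusted p = 0.094).

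Few genes of triglyceride assembly and the lipid droplet were called. Gpd1, which makes the glycerol phosphate backbone of triglycerides, was at 7.07, 7.15 and 7.14 and then at 10.47, 11.22, 9.70 and 8.37. All 4 late arrays were above the 3 earlier ones, by 2.82 ± 0.66 (adjusted p = 0.031), where DMSO cells gained 6.91 ± 0.66. The Gpd1 call held only without 96 h (0.014) or 288 h (0.026), and reached 0.19 without 24 h. It was the only called gene among 10 for triglyceride and glycerol synthesis, of which 7 rose in DMSO and 6 in untreated cells. The list medians were 0.47, 1.95 and 1.85. Among 12 genes of the droplet coat and its lipases, only Plin2, a coat protein present in many cell types, rose (1.16 ± 0.21, adjusted p = 0.01), beside 8 of 12 in each control arm. Plin1, the coat protein of mature fat droplets, was at 8.27, 5.89 and 5.59 and then between 6.54 and 6.99, inside the earlier range, while the late DMSO arrays lay between 8.31 and 10.05. The Plin2 call was lost without 24 h (0.12), 36 h (0.073) and 288 h (0.057). Cidec, which enlarges droplets by fusing them, was at 7.06, 5.86 and 9.76 and then at 12.96, 13.00, 9.58 and 8.78. The 96 and 144 h arrays were far above the others and the last 2 fell back into the 24 to 48 h range, so the mean difference of 3.52 ± 1.06 was not called (adjusted p = 0.069).

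Fatty acid synthesis held a single call. Of 11 genes none rose, and 1 fell: Elovl6, an elongase of long-chain fatty acids (-1.18 ± 0.27, adjusted p = 0.03), which fell by 1.17 in DMSO as well. The Elovl6 call held only without 48 h (0.027) or 96 h (0.012), and reached 0.2 without 24 h. Scd1, the stearoyl-CoA desaturase, was at 12.77, 12.97 and 12.76, then at 14.09, 15.06, 13.45 and 12.47. The late arrays overlapped the earlier ones (0.93 ± 0.37, adjusted p = 0.16), and 3 of the 4 late DMSO arrays were saturated. Fasn, the fatty acid synthase, did not pass the test in any arm (-0.42 ± 0.44 in prieurianin, adjusted p = 0.68).

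The transcription factors above these genes moved less. Pparg was at 11.08, 10.91 and 11.60 and then at 12.62, 12.64, 12.41 and 11.39. Only the 288 h array lay inside the earlier range, and the difference of 1.07 ± 0.31 was just short of the threshold (adjusted p = 0.058), beside a rise of 2.34 ± 0.31 in DMSO. Cebpa was at 8.25, 7.87 and 8.23 and then at 9.40, 9.23, 7.72 and 7.62. It was high at 96 and 144 h and below every earlier array at 240 and 288 h, so its mean difference was 0.37 ± 0.37 (adjusted p = 0.66). Cebpa rose by 1.70 ± 0.37 in DMSO. Of 15 adipogenic transcription factors and cofactors 1 rose, Ppargc1b, a coactivator of mitochondrial and lipid genes (1.15 ± 0.30, adjusted p = 0.043), a call lost on leaving out any single time (0.059 to 0.23). The list held 9 rises in DMSO and 7 in untreated cells. Slc2a4, the insulin-dependent glucose transporter GLUT4, differed by 0.22 ± 0.35 (adjusted p = 0.82), against a DMSO rise of 1.48 ± 0.35.

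Oxidative metabolism was near the level of all genes. Mature fat cells break down branched-chain amino acids and feed the carbon into lipid. None of 19 genes of that pathway was called in the late prieurianin arrays with limma, and 3 were higher at an unadjusted p under 0.05. The list median was 0.14, while 16 of 19 rose in DMSO (median 1.03) and 11 of 19 in untreated cells (median 0.70). Tested directly with limma, the late change differed from neither control for any of the 19. At an unadjusted p under 0.05, 12 were lower than in DMSO and 9 lower than in untreated cells. Of 18 fatty acid oxidation genes 1 rose in prieurianin, 8 in DMSO and 7 in untreated cells, with medians of 0.09, 0.56 and 0.57. Of 20 genes of pyruvate and the TCA cycle none was called (3 higher at an unadjusted p under 0.05), against 9 rises in DMSO and 6 in untreated cells. Of 15 carboxylesterases and detoxifying enzymes 3 rose in prieurianin, 7 in DMSO and 5 in untreated cells, with medians of 0.40, 0.93 and 0.67. Ephx2, the soluble epoxide hydrolase, rose by 1.95 ± 0.47 (adjusted p = 0.032), and Cat, the peroxisomal catalase, by 0.77 ± 0.18 (adjusted p = 0.031). Pex11a, which divides peroxisomes, was at 9.57, 9.75 and 10.53 and then between 11.03 and 11.68, without overlap (1.47 ± 0.30, adjusted p = 0.016). The Ephx2 call held only without 48 h (0.0063) or 96 h (0.045), and the Pex11a call only without 48 h (0.0023) or 96 h (0.027).

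**Figure D2:**
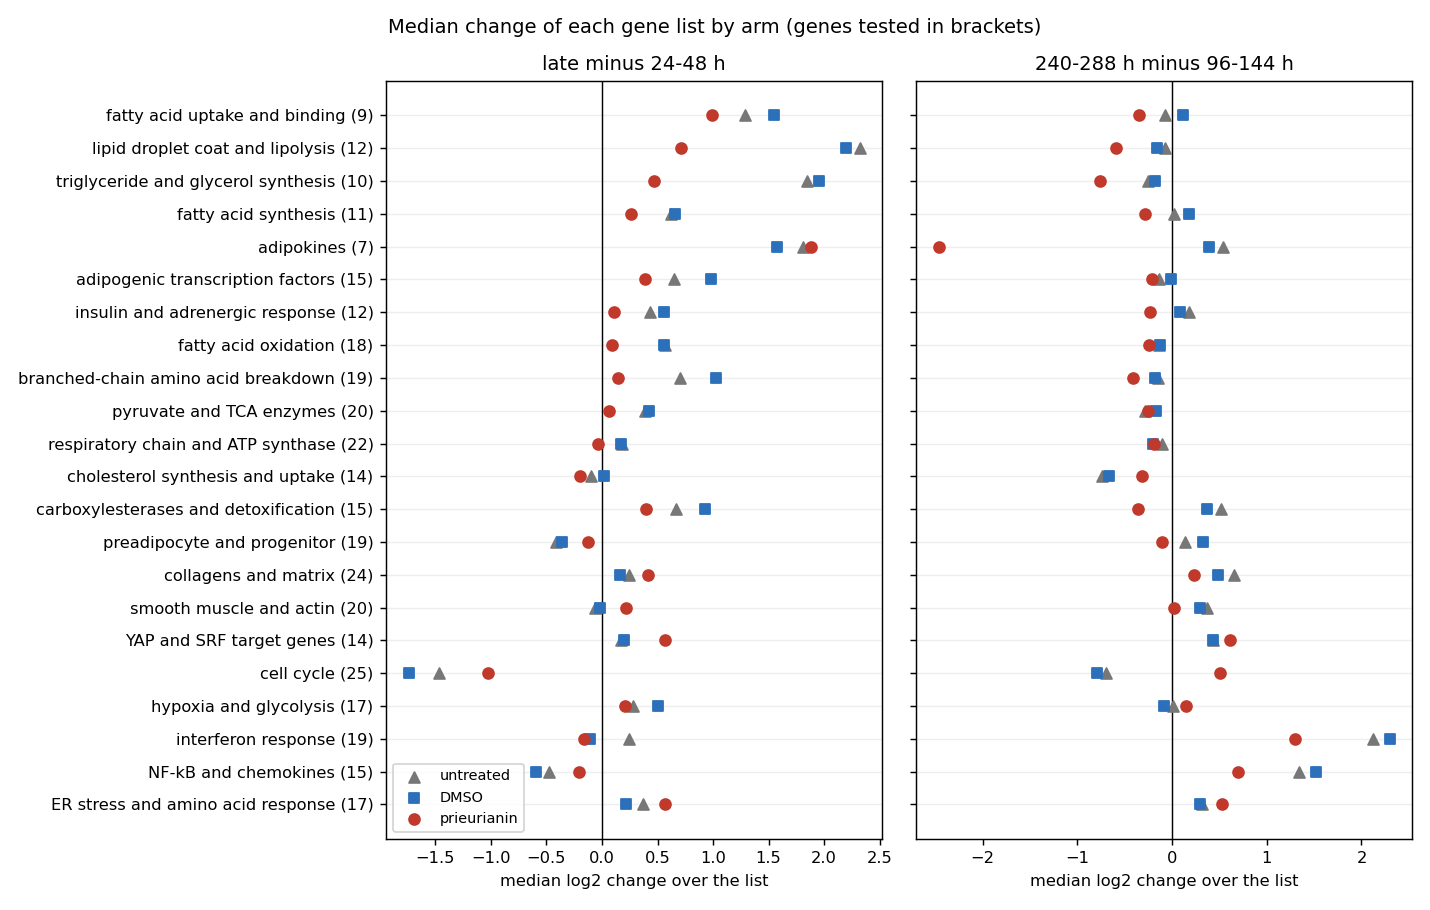
Median log2 differences over 22 gene lists in untreated (grey), DMSO (blue) and prieurianin (red) cells, for late minus 24 to 48 h and for 240 to 288 h minus 96 to 144 h, with 1 point per arm. In the late comparison branched-chain amino acid breakdown stood at 0.14 in prieurianin and 1.03 in DMSO. The adipokine medians include saturated arrays and are not comparable between arms.

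The extent of the terminal programme was described over the genes that changed in untreated cells. For each of 713 genes that rose there (median 0.98), the difference was taken as a share of the untreated one. The median of these shares was 47% in prieurianin and 94.7% in DMSO. In prieurianin 109 of the 713 (15.3%) were called higher, none lower, and 669 had the same sign. Of 827 genes that fell in untreated cells, the median share was 59.3% in prieurianin and 74.3% in DMSO. By array, the share of the rise over the 4 late times in order was 43.6%, 61.4%, 39.4% and 46.3%. The share of the fall was 51.3%, 69.8%, 58.8% and 53.8% at those times. The 144 h array stood highest in both, and the share of the rise was 52.1% over 96 to 144 h and 44.4% over 240 to 288 h. At 192 h, which enters none of these figures, the prieurianin share of the rise was 107%.

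**Figure D3:**
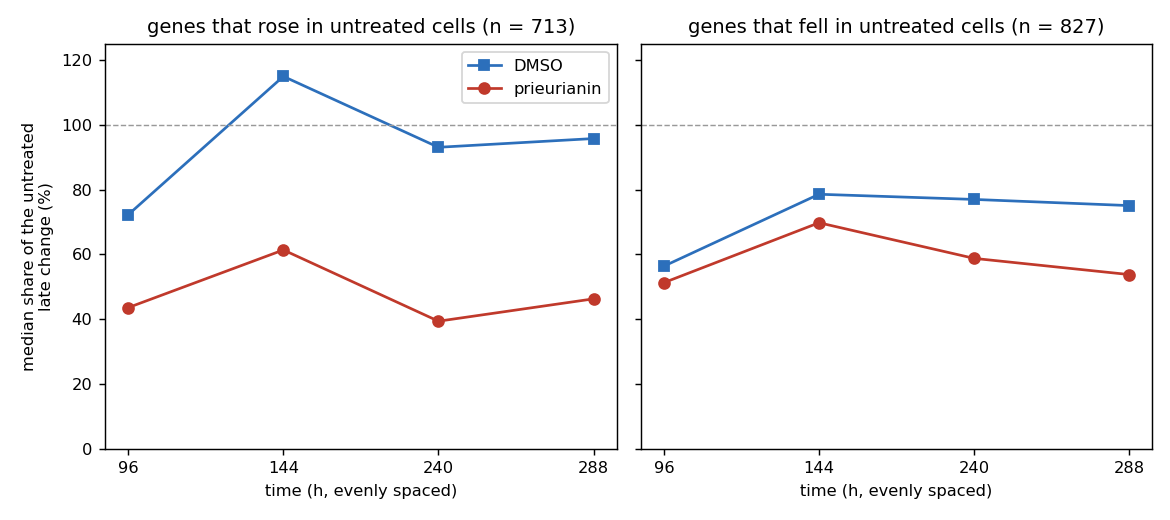
Median share of the untreated late change reached at 96, 144, 240 and 288 h in prieurianin and DMSO cells, in percent, for 713 genes that rose and 827 that fell in untreated cells, with 100% as a dashed line. The prieurianin share of the rise ran from 39.4% at 240 h to 61.4% at 144 h, below DMSO at each time.

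Whether the late change itself differed from the controls was tested as the difference of the differences. Against DMSO 10 genes were called (0.0782% of those tested), and against untreated cells 6 (0.0469%). Both tests use the same prieurianin arrays, so their values are given side by side. With time as a block, pairing the arms at each time, 202 genes (1.58%, 1.12% lower) were called against DMSO and 138 (1.08%) against untreated cells. The counts of rises per arm given above do not test a difference between arms. Without the block, the lists for fatty acid uptake, adipokines, fatty acid synthesis and adipogenic factors held no call against either control. The same was true of fatty acid oxidation, branched-chain breakdown, TCA and detoxification. With it, branched-chain breakdown held 4 of 19 against DMSO and 2 against untreated cells, all lower. Mgll, which releases the last fatty acid from a glyceride, was at 7.23, 7.22 and 6.95 and then at 7.72, 7.87, 7.08 and 6.83 in prieurianin. The late DMSO arrays lay between 9.61 and 10.42, far above. Its late change was smaller by 2.82 in prieurianin (-2.82 ± 0.35, adjusted p = 0.0013, and 0.0025 with the block) than in DMSO, and by 2.23 than in untreated cells (-2.23 ± 0.35, adjusted p = 0.033). G0s2, an inhibitor of the main triglyceride lipase, reached 8.27, 8.41, 7.93 and 7.28 in prieurianin and 10.51 to 11.65 in DMSO. The differences were -3.13 ± 0.43 (adjusted p = 0.0034, block 0.0082) and -3.25 ± 0.43 (adjusted p = 0.0059). Gpt, an alanine aminotransferase, differed by -2.30 ± 0.41 (adjusted p = 0.038, block 0.013). Gpat3, which adds the first fatty acid to glycerol phosphate, differed by -2.11 ± 0.39 from DMSO (adjusted p = 0.048, block 0.0025) and by -1.64 ± 0.39 from untreated cells (adjusted p = 0.27). The Mgll call held on leaving out any single time, but with 192 h added it was lost (-2.03, adjusted p = 0.68), as were those of G0s2 (0.68), Gpt (0.75) and Stmn4 (0.68). No gene was then called lower than in DMSO, so Gpat3 was lost too, and none was called against untreated cells. The G0s2 call did not hold without 24 h (0.082), 36 h (0.055), 48 h (0.064) or 240 h (0.063), and Gpt and Gpat3 held only without 96 h (0.00087 and 0.031). Cfd and Adipoq did not pass this test against DMSO in either form (adjusted p = 0.4 and 0.54, block 0.15 and 0.18).

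Some late rises had no counterpart in DMSO. Stmn4, a stathmin that binds tubulin, was at 6.56, 7.35 and 7.27 and then at 8.73, 9.42, 9.48 and 9.68. The groups did not overlap, and DMSO stayed between 6.34 and 7.08 throughout. The rise was 2.26 ± 0.24 (adjusted p = 0.00024), and it exceeded the DMSO change by 2.23 ± 0.34 (adjusted p = 0.011, block 0.0054). That between-arm call was lost without 36 h (0.074), 48 h (0.11), 240 h (0.14) and 288 h (0.074). Tagln, the actin-binding protein transgelin, was at 7.52, 8.36 and 8.12 and then at 9.49, 9.91, 9.95 and 10.06. Its late arrays were the highest, and the rise of 1.85 ± 0.21 (adjusted p = 0.00024) exceeded the DMSO change by 2.43 ± 0.29 (adjusted p = 0.0013, block 0.0026). Against untreated cells the Tagln difference was 1.55 ± 0.29 (adjusted p = 0.083, block 0.024). Slc6a12, a betaine and GABA transporter, rose by 2.07 ± 0.38 (adjusted p = 0.011) and differed by 0.14 ± 0.38 in DMSO, but the difference between the arms was not called (adjusted p = 0.21, block 0.027).

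Several contractile genes were higher in prieurianin than in DMSO cells on every array used, a standing difference that the late comparison does not test. Actg2, an enteric smooth muscle actin, was at 12.78, 14.40 and 13.18 and then at 15.02, 14.80, 13.74 and 13.74, whereas the 7 DMSO arrays lay between 6.24 and 6.69. The late and earlier prieurianin arrays overlapped (0.88 ± 0.34, adjusted p = 0.15). Acta2, smooth muscle actin, was saturated on all 7 prieurianin arrays and has no fold here. Of 20 smooth muscle and actin genes 3 rose late and none fell: Tagln, Acta1 and Vcl, with Acta1 at 8.12 at 240 h beside 9.54 to 9.59 on the other late arrays. The summed intensity of 6 smooth muscle markers was 83888 to 126710 in prieurianin and 2649 to 27005 in DMSO. Saturated Acta2 was the largest part of the prieurianin sum, while Cnn1 (7.15 to 7.76) and Myh11 (6.62 to 7.62) were dim in that arm. Of 14 target genes of YAP and SRF, which respond to actin tension, 4 rose late and none fell, beside 2 rises in each control arm. Ccn2, a matricellular growth factor, was at 7.70, 9.99 and 7.43 and then at 9.78, 11.79, 14.34 and 13.99. The 96 h array lay below the 36 h one, and the mean rise was 4.10 ± 0.88 (adjusted p = 0.022), called only without 96 h (0.0019) or 144 h (0.048) when a time was left out.

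Other large rises were shared with the controls. Plaat3, a phospholipase of fat cells, rose by 2.50 ± 0.51 (adjusted p = 0.014) and by 4.21 ± 0.51 in DMSO. Hmox1, the haem oxygenase, was at 11.50, 13.18 and 12.81 and then at 13.81, 15.25, 15.41 and 15.45, a rise of 2.48 ± 0.49 (adjusted p = 0.013) beside 1.99 ± 0.49 in DMSO. Lims2, a focal adhesion adaptor, rose by 2.12 ± 0.33 (adjusted p = 0.0055) and by 1.76 ± 0.33 in DMSO. Of the 10 largest non-overlapping rises, Stmn4 and Lims2 stayed called whichever single time was left out, and 3 of the 10 stayed called without 24 h, 2 without 36 h and 4 without 144 h.

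The 10 largest non-overlapping falls were called in DMSO as well. Spon2, a secreted matrix protein, was at 13.15, 12.36 and 12.88 and then at 11.20, 10.18, 10.60 and 10.43. The fall was 2.19 on the log2 scale (-2.19 ± 0.43, adjusted p = 0.013), beside -2.44 ± 0.43 in DMSO. Krt15, a keratin, went from 10.45, 9.16 and 11.10 to 8.77, 7.48, 5.26 and 4.89. It differed by -3.64 ± 0.94 (adjusted p = 0.04) and by -3.34 ± 0.94 in DMSO. Gata2, which holds cells in the preadipocyte state, was at 9.09, 9.14 and 8.74 and then between 7.54 and 8.36, a change of -1.07 ± 0.21 (adjusted p = 0.013) against -1.33 ± 0.21 in DMSO. Without 24 h or 36 h, 1 of these 10 falls stayed called, that of F830045P16Rik (0.037 and 0.034), and without 288 h 3 did. The Gata2 call was lost without 24 h (0.14) and 36 h (0.08). Of 19 preadipocyte and progenitor genes 1 rose and 1 fell in prieurianin, while 1 rose and 5 fell in each control arm.

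The second comparison asked what changed between 96 to 144 h and 240 to 288 h. In prieurianin 411 genes were higher at 240 to 288 h (3.21%) and 352 lower (2.75%), 763 in all (5.96%). DMSO gave 881 (6.89%, with 4.11% higher and 2.78% lower) and untreated cells 874 (6.83%, with 4.3% higher and 2.53% lower). The count was 89 without the 96 h arrays, 503 without 36 h, 508 without 144 h and 62 without 288 h. It was 9, all lower, when 192 h was counted with the later window. The calls of Ifit3 (0.44), Tnnt2 (0.22), Ccn2 (0.81), Pip (0.32), Apod (0.1), Sult1a1 (0.61) and Agt (0.55) were then lost. Of the 217 genes that rose late, 67 (30.9%) were lower at 240 to 288 h than at 96 to 144 h, and 2 of these were called lower, while 14 of the 217 were called higher still. Their median change was 0.86 over 96 to 144 h and 1.11 over 240 to 288 h, but calling genes on the mean of both windows favours lasting changes.

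Fat cell genes were lower in the second window, and several passed the test. The 192 h array, between the windows, did not lie between them: Gpd1 and Cidec stood higher there than on any other late prieurianin array. Over all genes only 9 were called when 192 h joined the later window. The mean of Gpd1 in that window was then above its mean at 96 to 144 h, so its fall did not hold. For the other falls in this paragraph the result with 192 h added is not given. Of 9 fatty acid uptake genes 2 fell and 7 had a negative difference. Acsl1 was at 12.87 and 12.84, then at 10.85 and 10.40, a change of -2.23 ± 0.38 (adjusted p = 0.0041), where DMSO differed by -0.18 ± 0.38. The difference between these arms was not called (-2.05, adjusted p = 0.14, block 0.007). Gpd1 was at 10.47 and 11.22, then at 9.70 and 8.37, a change of -1.81 ± 0.42 (adjusted p = 0.019). DMSO moved the other way, by 2.07 ± 0.42 (adjusted p = 0.007). Scd1 went from 14.09 and 15.06 to 13.45 and 12.47 (-1.62 ± 0.32, adjusted p = 0.0089). Lpin1, which makes diacylglycerol, went from 11.49 and 11.58 to 9.57 and 9.26, the level of 24 to 48 h (-2.12 ± 0.49, adjusted p = 0.019). Triglyceride synthesis held 3 falls among 10 genes, with 9 negative differences and a median of -0.76, beside 0.002 over all genes. Cebpa fell as well (-1.65 ± 0.30, adjusted p = 0.0055), and differed by -0.01 ± 0.30 in DMSO, a difference between arms called only with the block (adjusted p = 0.13, block 0.027). The dimmer of the 2 Cebpa probes changed by -0.63 in prieurianin. Without the 288 h arrays the Gpd1, Scd1, Acsl1 and Cebpa calls were lost (adjusted p = 0.34, 0.21, 0.1 and 0.1). Gpd1 and Scd1 were also lost without 144 h (0.07 and 0.087), and Lpin1 without 96 h (0.13), 144 h (0.071), 240 h (0.058) or 288 h (0.2).

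Among secreted products, Agt, angiotensinogen, was at 9.03, 8.34 and 12.02, then at 14.26 and 14.21, then at 10.20 and 9.84. The 96 and 144 h arrays stood far above the rest, and the later change was -4.21 ± 1.06 (adjusted p = 0.029). It was lost without 96 h (0.25), 144 h (0.12), 240 h (0.1) or 288 h (0.25). Cfd differed by -3.84 ± 1.13 (adjusted p = 0.056) and Adipoq by -2.46 ± 1.37 (adjusted p = 0.32), so neither was called. Apod, a lipid-binding apolipoprotein, was at 12.97 and 12.08, then at 7.84 and 7.61, below all 24 to 48 h arrays. Its change was -4.80 ± 1.06 (adjusted p = 0.016), while DMSO stayed between 11.42 and 13.36 over these 4 times. Sult1a1, a phenol sulfotransferase, went from 10.92 and 10.75 to 6.88 and 5.74 (-4.52 ± 1.03, adjusted p = 0.018). Dlk1, the preadipocyte factor, also fell, from 15.63 and 15.22 to 14.45 and 14.54 (-0.93 ± 0.22, adjusted p = 0.021), and differed by 0.38 ± 0.22 in DMSO (difference between arms, adjusted p = 0.1, block 0.0064). The Dlk1 call was lost without 96 h (0.17), 240 h (0.096) and 288 h (0.16). The largest fall, that of the secreted protein Pip (-5.90 ± 1.04, adjusted p = 0.0046), was -5.52 ± 1.04 in DMSO. Of the 6 largest falls none stayed called without 96 h or without 288 h, where the adjusted p of Apod was 0.17 and 0.18 and that of Sult1a1 0.19 and 0.23, and 2 stayed called without 144 h.

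**Figure D4:**
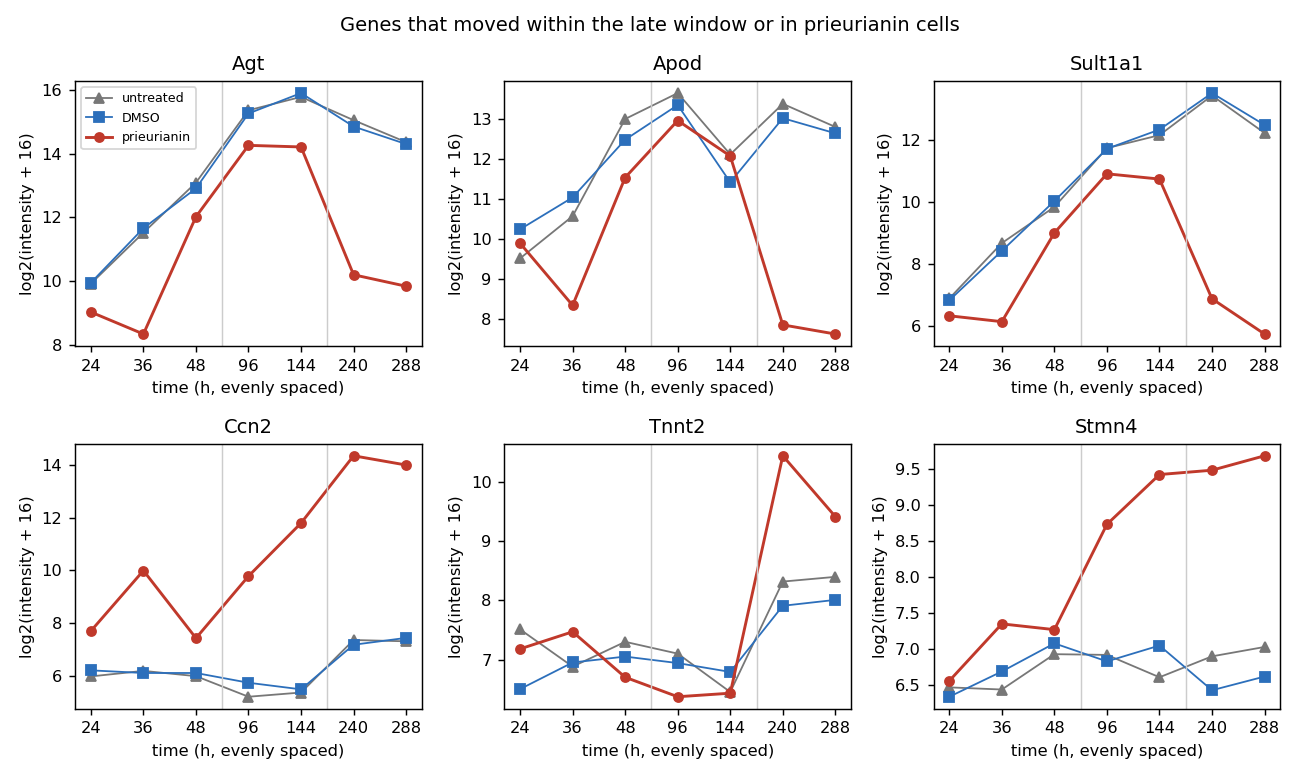
Levels of Agt, Apod, Sult1a1, Ccn2, Tnnt2 and Stmn4, as log2(intensity + 16), at 24 to 288 h in the 3 arms, 1 array per point. In prieurianin Apod and Sult1a1 came down from 12.97 and 10.92 at 96 h to 7.61 and 5.74 at 288 h, Tnnt2 went from 6.43 at 144 h to 10.45 at 240 h, and Stmn4 stayed high.

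Interferon response genes rose in the second window in all 3 arms, but in prieurianin none of the 19 was called with 192 h added (median 0.52), where Ifit3 was at 6.61. Many genes switched on by interferon carry a DNA element known as the ISRE near their start. Of 19 genes of the response 10 rose in prieurianin, 16 in DMSO and 15 in untreated cells, with medians of 1.30, 2.30 and 2.12. The list had 1 rise without 96 h, 2 without 144 h, 2 without 240 h and 1 without 288 h. Ifit3, an antiviral effector, was at 10.46, 8.53 and 8.44, then at 8.02 and 7.69, then at 12.36 and 12.26. The rise was 4.45 ± 0.53 (adjusted p = 0.00031), beside 6.21 ± 0.53 in DMSO. Isg15, a ubiquitin-like modifier, was as high at 24 h (13.44) as at 240 h (13.45), with 9.29 at 144 h, and rose by 3.16 ± 0.72 (adjusted p = 0.018). Stat2 rose by 1.43 ± 0.33 (adjusted p = 0.019). The ISRE letters, GAAA, any 2 bases and GAAA, were searched on both strands of the 250 bases before each gene's start. They were in 978 of 32851 RefSeq promoters (2.98%), and in 10 of 18 promoters of the list. They were in 5 of the 10 promoters of genes that rose. Of these, the 3 whose rises are given above are shown as 100-base stretches of GRCm38.p6, with matches in capitals and overlapping ones merged. A match describes the letters, not a bound site.
Isg15, chr4:156200837-156200936, minus strand: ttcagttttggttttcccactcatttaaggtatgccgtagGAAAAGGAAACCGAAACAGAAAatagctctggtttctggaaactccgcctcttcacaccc
Ifit3, chr19:34583333-34583432, plus strand: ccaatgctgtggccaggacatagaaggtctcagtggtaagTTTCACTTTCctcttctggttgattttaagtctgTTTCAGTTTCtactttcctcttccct
Stat2, chr10:128270248-128270347, plus strand: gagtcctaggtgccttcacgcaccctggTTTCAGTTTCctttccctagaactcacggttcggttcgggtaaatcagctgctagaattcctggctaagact

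Some matrix genes and 1 of 9 skeletal muscle markers, Tnnt2, were also among the rises. Of 20 smooth muscle and actin genes 2 fell and none rose, whereas 6 rose in DMSO and 5 in untreated cells, with no fall. The difference between arms was called lower in prieurianin for 3 of the 20 against each control (0.149% and 0.156% of all genes). Tnnt2, cardiac troponin T, was between 6.37 and 7.47 up to 144 h and at 10.45 and 9.42 at 240 and 288 h. It rose by 3.53 ± 0.32 (adjusted p = 9.1e-05), beside 1.10 ± 0.32 in DMSO. Megf10, a receptor that engulfs cell debris, rose by 2.59 ± 0.28 (adjusted p = 0.00019) and differed by 0.14 ± 0.28 in DMSO. Tnc, the matrix protein tenascin C, rose by 2.29 ± 0.28 (adjusted p = 0.00039). Of 24 collagen and matrix genes 5 rose and 1 fell, beside 8 and 9 rises in DMSO and untreated cells. Ccn2 rose by 3.38 ± 0.63 (adjusted p = 0.0067), with 5 rises and 1 fall among the 14 YAP and SRF targets. The Ccn2 call was lost without 96 h (0.17), 240 h (0.053) and 288 h (0.091), whereas Tnnt2, Megf10 and Tnc stayed called whichever time was left out. With 192 h added to the later window no gene was called higher, so these rises were all lost. Mylk, the kinase that starts smooth muscle contraction, went from 14.05 and 13.59 to 11.66 and 11.42 (-2.28 ± 0.38, adjusted p = 0.0034), a call lost without 96 h (0.089) and 288 h (0.088).

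Cell cycle genes took another course. Over 25 genes the mean level at 24, 36 and 48 h was 11.91, 11.37 and 10.99, and at 96, 144, 240 and 288 h it was 10.40, 10.07, 10.44 and 10.87. The last 2 arrays were above the 144 h one, while DMSO ended at 9.45 and 9.66. In the late comparison 1 of 25 fell in prieurianin (Pcna, a replication clamp, -1.03 ± 0.23, adjusted p = 0.025), against 21 in DMSO and 20 in untreated cells. However, 24 of 25 were negative in prieurianin (median -1.03) and 19 were lower at an unadjusted p under 0.05. The late difference from DMSO was called for none with limma, with or without the block, and 0 had an unadjusted p under 0.05. Between the late windows none was called in prieurianin with limma (3 higher and 1 lower at an unadjusted p under 0.05, median 0.51), whereas 7 fell in DMSO (median -0.79). The difference between the arms had a median of 1.48, with none called (0.102% of all genes were called higher), 16 higher at an unadjusted p under 0.05, and 18 called higher with time as a block (1.87% of all genes). Top2a, which untangles DNA for cell division, read 11.08, 10.57, 10.95 and 12.03 on the late prieurianin arrays and 11.54, 11.41, 9.59 and 10.05 in DMSO. The groups moved apart at 240 and 288 h (block adjusted p = 0.0018).

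**Figure D5:**
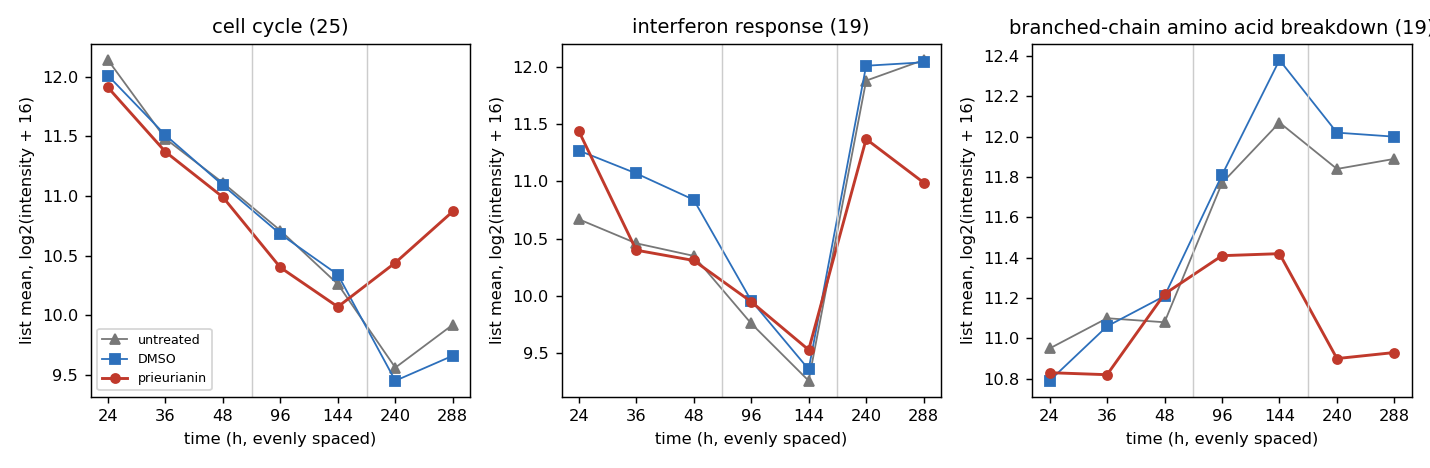
Mean log2(intensity + 16) over the genes of 3 lists, cell cycle (25), interferon response (19) and branched-chain amino acid breakdown (19), at 24 to 288 h in the 3 arms, 1 array per point. The cell cycle mean ended at 10.87 in prieurianin and 9.66 in DMSO, and the interferon mean rose between 144 and 240 h in every arm.

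The change between the late windows was also tested against the controls. It differed from DMSO for 32 genes (0.25%, 0.102% higher) and from untreated cells for 30 (0.235%), tests that share the prieurianin arrays. With time as a block the counts were 488 (3.81%, 1.87% higher) and 447 (3.49%, 1.63% higher). Gpd1 differed by -3.88 ± 0.59 from DMSO (adjusted p = 0.013, block 0.0012) and by -3.71 ± 0.59 from untreated cells (adjusted p = 0.02). The call against untreated cells was lost with 192 h added, as were all others against that arm. Mylk differed by -3.56 ± 0.54 (adjusted p = 0.013, block 0.0012). Itih4, an acute-phase protein, stayed between 6.29 and 7.25 on the late prieurianin arrays and reached 11.24 and 11.66 in DMSO, a difference of -5.13 (adjusted p = 0.003). Klf5, an early inducer of fat cell differentiation, held between 10.63 and 10.95 in prieurianin while DMSO went from 11.40 and 10.78 to 9.17 and 9.13, a difference of 2.06 ± 0.34 (adjusted p = 0.017, block 0.0039). Tnnt2 differed by 2.43 from DMSO (adjusted p = 0.035). On leaving out single times the Tnnt2 call held in 2 of 7 cases and those of Mylk and Klf5 in 3 of 7. Apod and Sult1a1 were called only with the block (adjusted p = 0.17 and 0.14 without it, 0.0026 and 0.00078 with it). No gene was called against DMSO without the 288 h arrays, where 864 had an unadjusted p under 0.05.

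The labelled cell type was checked on its markers. The summed intensity of 7 adipocyte markers was 16660 to 33373 at 24 to 48 h, 87627 to 100155 at 96 to 144 h and 49013 to 53863 at 240 to 288 h in prieurianin. DMSO reached 154985 to 241162 and then 239151 to 244648. Lpl alone was the largest part of each prieurianin sum, at 13.87 to 14.66 and then 15.34 to 15.83. The late DMSO arrays were saturated for Lpl, and those at 240 and 288 h for Cfd and Adipoq too, so the DMSO sums are lower bounds. The 5 preadipocyte markers summed to 123823 to 142385, 97701 to 114761 and 67022 to 86437 in the same prieurianin windows. Of 12 macrophage markers 8 were above the filter on dim genes, Cd14, Itgam and Aif1 among them. Adgre1, Cd163, Tyrobp and Ptprc were below that filter. Cd68, a lysosomal protein, rose late (1.93 ± 0.44, adjusted p = 0.026, held only without 96 h at 0.002). Of 11 brown fat markers 8 were below it, Ucp1 and Prdm16 among them, and of 14 skeletal muscle markers 5, Myod1 and Ckm among them. Of the 11 bone and cartilage markers on the array 8 were above it, and the summed intensity of the list went from 20178 to 22783 at 96 to 144 h to 67556 to 67563 at 240 to 288 h in prieurianin, and from 23299 to 27305 to 56706 to 65629 in DMSO. Spp1, osteopontin, made up most of these prieurianin sums, at 14.06 and 14.28 and then saturated on both of the last arrays. The list as a whole did not rise there: between the late windows 7 of its 8 genes were negative in prieurianin (median -0.18). The part of these markers in the results was not tested.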

How the data were processed

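RNA from 3T3-L1 cells was hybridised, per the labels, in 1 Cy5 channel to 54 arrays. The authors deposited 1 linear intensity per probe, and scanner, scaling and background subtraction are not given in the sources used here. Values ran from -83 to 65497. They were quantile normalised over 54 arrays, floored at 0 and taken as log2(intensity + 16). Of 29922 probes, 21020 had 1 gene symbol and 8902 none. The brightest probe stood for each of 16637 genes, and 12792 passed a filter at the lower quartile. limma 3.58.1 in R 4.3.3 fitted 21 arrays (3 arms, 7 times), with 15 residual degrees of freedom for late against 24 to 48 h and 12 for the late windows, and Benjamini-Hochberg adjustment. The fit was tested on simulated data. Alternatives were scaling, offset, filter, probe choice, the arm alone, 192 h added, time as a block and each time left out. Same-time deviations across arms correlated at -0.11 to 0.67 (19 of 21 over 0.1). Genes were named as the largest non-overlapping called changes, the largest called between-arm differences, the 3 largest late changes of each list, and a set of fat cell and contractile genes. Cat, Isg15, Itih4, Klf5, Megf10, Pcna, Rarres2, Stat2, Tnc, Top2a and Vcl fall outside this rule and were chosen after their values were seen. Members and lists were chosen with earlier results of these data known.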

Additional observations from a re-analysis of the deposited data

Results flagged for a closer look

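On 4 late prieurianin arrays, 1 array stood apart for 4 genes: Cd36 was highest at 144 h (9.82), Hmox1 lowest at 96 h (13.81), Acta1 lowest at 240 h (8.12) and the interferon-induced GTPase Gbp2 lowest at 144 h (9.96). Chance alone sets such an array apart in about 5% of groups of replicates. Many more genes than these 4 were looked over, and the arrays come from different windows rather than replicates, so nothing is read from them.

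The late change differed between prieurianin and DMSO for Stmn4 (2.23), Tagln (2.43), G0s2 (-3.13), Mgll (-2.82), Gpt (-2.30) and Gpat3 (-2.11). The change from 96 to 144 h to 240 to 288 h differed for Gpd1 (-3.88), Tnnt2 (2.43), Mylk (-3.56), the lipopolysaccharide co-receptor Cd14 (-1.97), the myosin light chain Myl9 (-1.87) and Acta2 (-2.99). Acta2 was saturated on all late prieurianin arrays, which fixes its prieurianin change at 0, so its value is not a measured difference between the arms. Of the 4 Acta2 probes, 1 reached -0.89 in prieurianin over the same times.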

How the results depend on the processing

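For the late change in prieurianin, 431 genes became 239 with median centring (80 higher, 159 lower), 307 on deposited values (82 higher, 225 lower), 21 with the arm alone, and 8 to 842 with 1 time left out. Between the late windows, 763 became 428 with median centring (278 higher), 455 on deposited values (294 higher), 154 with the arm alone, 9 with 192 h, and 62 to 898 with 1 time left out. The late difference from DMSO went from 10 to 22 with median centring, 4 on deposited values, 1 with the filter at the median, 1 with 192 h, 61 with time as a random block, 202 as a fixed block, and 2 to 36 with 1 time left out. Against untreated cells 6 became 1 with the filter at the median, 0 with 192 h (limma, 416 at an unadjusted p under 0.05), 26 and 138 with the blocks, and 0 to 14. For the late windows against DMSO, 32 became 13 with 192 h, 178 and 488 with the blocks, and 0 to 65. Deposited values gave 2 higher and 22 lower. Against untreated cells 30 became 17 on deposited values, 19 with the filter at the median, 0 with 192 h (limma, 1189 at an unadjusted p under 0.05), 228 and 447 with the blocks, and 2 to 50. DMSO gave 955 to 2710 late calls and untreated cells 516 to 1701 with 1 time left out. Late DMSO calls split into 2423 higher and 537 lower with median centring, and 843 and 1557 on deposited values; untreated calls split into 827 and 490 on deposited values. The share of the untreated change was 54.5%, ran from 46.4% to 57.2% with 1 time left out and was 60.8% with 192 h. Median centring moved the median gene of the late difference from DMSO by -0.32. The causes were not tested. Where a named gene was called, 717 alternative values kept the call and 278 lost it; where it was not called, 40 gained one and 1533 did not. None reversed. With 1 array per arm and time, and saturation at the top of the scale, small differences and those of the brightest genes cannot be resolved.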

Other observations

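The prieurianin array at 192 h belongs to neither window. Gpd1 was at 15.77 there, against 13.75 in DMSO and 14.18 in untreated cells, and Cidec at 15.86, against 14.20 and 15.22. Stmn4, at 9.42 and 9.48 on the prieurianin arrays before and after it, was at 6.77. Contractile genes were nearer to the other prieurianin arrays: Myl9 was at 12.89, against 8.03 in DMSO and 7.56 in untreated cells, and Tagln at 9.01, against 6.43 and 6.67. Ifit3 was at 6.61 in prieurianin, 13.77 in DMSO and 10.21 in untreated cells.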
